A study of Mus musculus with 6 samples.

Results

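Collagens are extracellular matrix proteins whose chains carry repeats of glycine followed by 2 other residues and wind into a triple helix. Fibrillar collagens form the banded fibrils of the dermis, collagen IV forms the sheet of basement membranes, and the remaining classes decorate fibrils, form beaded filaments or hexagonal networks, sit in basement membrane zones or span the cell membrane. In skin, fibroblasts make most fibrillar collagen, while basal keratinocytes contribute collagen IV and other parts of the basement membrane on which they rest.

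The collagen gene family was taken as every protein-coding row of the expression table whose symbol reads Col, a number, a and a number, apart from 2 collagens of the hemidesmosome and anchoring fibril that the rule sets aside. This gave 42 members among the 49386 genes of the table. They fall into 11 fibrillar, 6 basement membrane (collagen IV) and 25 other members. Of these, 19 had a mean of at least 1 FPKM in a group and were tested with the 13500 genes that met this minimum. FPKM are fragment counts divided by transcript length and by the size of the library, so levels can be compared between genes.

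The study compared mRNA levels of epidermis lacking Rictor, an essential subunit of mTOR complex 2, with control epidermis. Libraries 263, 265 and 266 carry the genotype Rictor -/- (title ricEKO), and libraries 261, 262 and 264 are labelled control (title ctrl). All 6 came from separated epidermis of C57BL/6 embryos at E19.5, late in gestation, and were made from total RNA. The sources used here do not give the driver of the deletion, the alleles of the controls, the animals behind a library or any pooling. P-values therefore measure the spread between these libraries, part of which may be technical.

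Rictor was not lower in the knockout-labelled libraries, at 6.83, 7.04 and 6.86 FPKM in libraries 263, 265 and 266, against 5.63, 6.02 and 4.37 FPKM in controls 261, 262 and 264. Its difference was 0.33 ± 0.11 (SE, n = 3 per group, limma adjusted p = 0.0694). Where a deletion removes only some exons, reads from the others still count toward the gene, so its FPKM is no check of the labels. Every direction below is that of the libraries labelled knockout. The FPKM of a library summed to between 609375 and 672925, and steps between low values put depth, relative to control 261, at 1.05 to 1.2 in the knockout-labelled libraries and at 1.14 and 1.21 in the other controls. The deviation of a gene from its mean was ranked against its exonic length. Spearman's rho, a description across genes and not across replicates, was 0.173, 0.191 and 0.263 for libraries 263, 265 and 266, and -0.00709, 0.0028 and -0.358 for controls 261, 262 and 264. The tested collagens are long, with a median exonic length of 7833 bases against 4036 bases for all tested genes, so values adjusted for length and GC content are given where they matter.

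The summed level of collagen transcripts stood higher in the knockout-labelled libraries, while single members moved both ways. The sum of the 42 members was 361, 364 and 404 FPKM in libraries 263, 265 and 266, against 267, 283 and 253 FPKM in controls 261, 262 and 264, and the groups did not overlap. A few abundant members weigh most in this sum. Without Col18a1 it was 273, 278 and 319 FPKM in libraries 263, 265 and 266. The controls 261, 262 and 264 were then at 230, 243 and 216 FPKM, again without overlap. Of the 19 tested members 8 rose and 2 fell, where over all tested genes 7.91% rose and 15.6% fell (limma, adjusted p threshold 0.05). The median log2 difference of the tested members was 0.48, against -0.06 over all tested genes. Among all called genes 33.7% were higher as deposited, and 44.8% to 50.8% under scaling between libraries or length and GC adjustment. Under the length and GC adjustment 9 collagens rose and 1 fell, with a median of 0.46. Over all genes 1688 rose and 1634 fell there, against 1068 and 2101 as deposited. The count of collagens that rose was 4 without control 261 and 5 without control 262, where 634 and 664 of all genes rose. Without the filter on low values 5 collagens rose, where 724 of 26987 genes rose (2.68%). These 5 include Col23a1, which is not among the 19. The count that fell was 1 without 263, 265, 266 or control 262, where 985, 1165, 1001 and 1544 of all genes fell. Bulk values cannot tell fewer cells of a type from less RNA per cell.

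**Figure D1:**
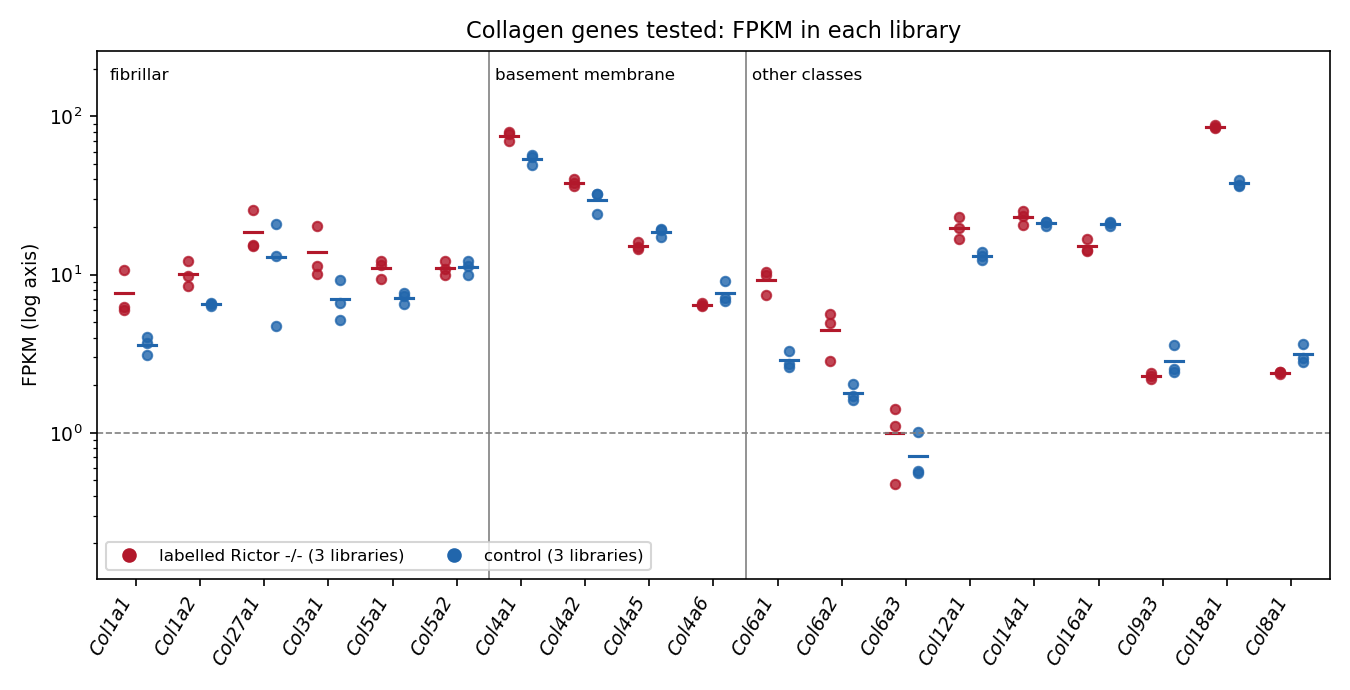
FPKM on a log axis for the 19 tested collagens in the 3 libraries labelled Rictor -/- (red, left of each pair) and the 3 control libraries (blue, right), with horizontal marks for group means and a dashed line at 1 FPKM. Col18a1 and Col6a1 show the widest separation, while the points of Col5a2, Col14a1, Col6a3 and Col27a1 overlap between groups.

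The sequences shown are the promoter windows of collagens that lie near each other in the genome. Col6a1, Col6a2 and Col18a1 share a stretch of chromosome 10, and all 3 rose. Col4a1 and Col4a2 are transcribed in opposite directions from neighbouring starts on chromosome 8, and of this pair Col4a1 rose and Col4a2 did not pass. The windows run from 250 bases before to 50 bases after the RefSeq start (build GRCm38.p6), are given 5′ to 3′ on the gene's own strand, and were matched by symbol for 33 of the 42 members. Capitals mark the motifs searched on both strands, the GC box GGGCGG, the CCAAT box CCAAT, the TATA box TATAAA and the AP-1 site TGANTCA.
Col6a1, chr10:76725995-76726294, minus strand: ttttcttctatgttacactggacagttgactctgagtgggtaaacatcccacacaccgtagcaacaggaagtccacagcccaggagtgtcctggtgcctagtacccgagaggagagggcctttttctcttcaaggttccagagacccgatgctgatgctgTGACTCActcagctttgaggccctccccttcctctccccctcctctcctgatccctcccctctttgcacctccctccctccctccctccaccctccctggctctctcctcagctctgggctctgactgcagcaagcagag
Col6a2, chr10:76623355-76623654, minus strand: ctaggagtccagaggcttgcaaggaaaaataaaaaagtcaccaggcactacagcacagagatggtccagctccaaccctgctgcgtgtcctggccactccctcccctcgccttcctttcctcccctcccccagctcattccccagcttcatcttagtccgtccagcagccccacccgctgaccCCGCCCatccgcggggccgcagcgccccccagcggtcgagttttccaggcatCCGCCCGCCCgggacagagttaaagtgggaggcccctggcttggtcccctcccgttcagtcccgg
Col18a1, chr10:77166481-77166780, minus strand: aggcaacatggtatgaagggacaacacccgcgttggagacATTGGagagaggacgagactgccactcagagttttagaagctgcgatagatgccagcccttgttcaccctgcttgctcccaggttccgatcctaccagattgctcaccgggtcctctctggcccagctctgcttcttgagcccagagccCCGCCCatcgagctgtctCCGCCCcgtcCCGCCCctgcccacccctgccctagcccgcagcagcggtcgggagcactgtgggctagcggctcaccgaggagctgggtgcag
Col4a1, chr8:11312777-11313076, minus strand: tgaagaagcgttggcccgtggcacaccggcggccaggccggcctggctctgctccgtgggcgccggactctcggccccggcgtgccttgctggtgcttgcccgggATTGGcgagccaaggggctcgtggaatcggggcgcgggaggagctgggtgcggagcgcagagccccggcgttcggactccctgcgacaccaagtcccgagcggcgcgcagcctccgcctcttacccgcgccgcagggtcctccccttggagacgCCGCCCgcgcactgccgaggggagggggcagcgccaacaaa
Col4a2, chr8:11312555-11312854, plus strand: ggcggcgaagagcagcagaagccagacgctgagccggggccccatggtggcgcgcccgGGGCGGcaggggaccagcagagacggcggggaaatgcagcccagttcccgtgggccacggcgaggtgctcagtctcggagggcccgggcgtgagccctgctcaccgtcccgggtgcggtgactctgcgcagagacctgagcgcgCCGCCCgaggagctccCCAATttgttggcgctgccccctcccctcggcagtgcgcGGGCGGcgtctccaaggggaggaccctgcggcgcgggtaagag

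The Col6a1 window held an AP-1 site that begins 90 bases before the start. This motif was found in 7.81% of the 32851 windows of this length and in 1 of the 16 windows of tested collagens. The printed Col6a2 window held GC boxes 67, 15 and 11 bases before the start, the last 2 of which overlap, and a second RefSeq window for Col6a2 is not printed. Col18a1 had GC boxes 61, 43 and 33 bases before its first start. It has a second start inside the gene, whose window is not printed and held none of the motifs. A gene-level FPKM does not separate the transcripts of these starts. GC boxes occurred in 35.7% and CCAAT boxes in 37.4% of all windows. The Col4a1 and Col4a2 windows share 78 bases read from opposite strands. Each match is a run of letters, not a measured site.

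The fibrillar collagens rose or did not pass, and none of the 6 tested fell. These 6 had a median log2 difference of 0.61, and 3 rose. Col1a1, the main chain of dermal fibrils, stood at 6.28, 6.00 and 10.7 FPKM in libraries 263, 265 and 266, against 3.11, 3.68 and 4.05 FPKM in controls 261, 262 and 264. The groups did not overlap, and library 266 stood well above the other 2 knockout-labelled libraries. The log2(FPKM + 1) difference of Col1a1 was 0.87 ± 0.20 (SE, n = 3 per group, limma adjusted p = 0.0251), and its call was lost without control 261 or 262 (adjusted p = 0.0758 and 0.0574) and without the filter (0.0711). Col1a2, the partner chain of collagen I, was at 8.50, 9.83 and 12.1 FPKM in libraries 263, 265 and 266, against 6.31, 6.56 and 6.61 FPKM in controls 261, 262 and 264. It rose by 0.56 ± 0.12 (adjusted p = 0.0184, limma), with the call lost without control 261 or without 265 (adjusted p = 0.0588 and 0.0549) and without the filter (0.0518).

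Collagen V, which sits inside collagen I fibrils and limits their width, had 1 tested chain that rose and 1 that did not pass. Col5a1 rose, at 11.4, 9.41 and 12.2 FPKM in libraries 263, 265 and 266 against 7.60, 7.28 and 6.51 FPKM in controls 261, 262 and 264 (0.56 ± 0.11, limma adjusted p = 0.0133). This call was lost without 263 (adjusted p = 0.0541). Col5a2 stood at 9.96, 12.1 and 10.8 FPKM in libraries 263, 265 and 266 and at 11.4, 12.1 and 9.93 FPKM in controls 261, 262 and 264, so its groups overlapped (-0.02 ± 0.10, limma adjusted p = 0.893).

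Collagen III, the fibrillar collagen of young and elastic dermis, had groups that did not overlap and missed the threshold. Col3a1 stood at 11.3, 10.1 and 20.4 FPKM in libraries 263, 265 and 266, against 5.18, 6.64 and 9.27 FPKM in controls 261, 262 and 264. The difference was 0.86 ± 0.28 (limma adjusted p = 0.0708), 1.05 without control 264, where it passed (adjusted p = 0.0489), and 0.57 without 266 (adjusted p = 0.138). Col27a1, a fibrillar collagen best known from cartilage, ranged from 15.1 to 25.5 FPKM in the knockout-labelled libraries and from 4.76 to 20.7 FPKM in the controls, the lowest being control 264. Its difference of 0.66 ± 0.47 did not pass (limma adjusted p = 0.344) and was 0.13 without control 264.

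Of the 4 tested basement membrane collagens, Col4a1 rose, Col4a5 fell, and the partner of each in its gene pair did not pass. Col4a1 and Col4a2 encode the chains of the collagen IV found in nearly all basement membranes, and their first exons overlap by 22 bases on opposite strands of chromosome 8. Col4a1 was at 77.0, 70.0 and 79.8 FPKM in libraries 263, 265 and 266, against 55.3, 56.7 and 49.6 FPKM in controls 261, 262 and 264. It rose by 0.48 ± 0.08 (limma adjusted p = 0.00937), and the call held in all 19 alternatives. Col4a2 was at 37.9, 36.1 and 40.0 FPKM in libraries 263, 265 and 266, against 32.1, 32.4 and 24.2 FPKM in controls 261, 262 and 264. Its groups did not overlap, and it missed the threshold (0.36 ± 0.12, limma adjusted p = 0.0694) but passed without control 264 (0.23, adjusted p = 0.0368) and after length and GC adjustment (adjusted p = 0.0354). The sources used here do not say whether the libraries keep strand, so reads in the 22 shared bases cannot be assigned to a gene.

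Col4a5 and Col4a6, a pair on the X chromosome with RefSeq starts 1343 bases apart, encode chains that assemble in the epidermal basement membrane. Col4a5 was at 14.6, 14.9 and 16.0 FPKM in libraries 263, 265 and 266, against 17.2, 19.1 and 19.504 FPKM in controls 261, 262 and 264. It fell by 0.28 on the log2 scale (SE 0.07, limma adjusted p = 0.0343), and the call was lost without 263, 265, 266 or control 262 (adjusted p = 0.12, 0.103, 0.0683 and 0.0862) and with a sex term (0.0898). Median scaling, trimmed mean scaling, length and GC adjustment and no filter also ended it (adjusted p = 0.0581, 0.0627, 0.0503 and 0.0593). Col4a6 stood at 6.40, 6.31 and 6.59 FPKM in libraries 263, 265 and 266 and at 7.12, 9.07 and 6.80 FPKM in controls 261, 262 and 264 (-0.21 ± 0.11, limma adjusted p = 0.186). Its groups did not overlap, by a narrow margin. Col4a3 and Col4a4, known best from the kidney filter, stayed under 1 FPKM in every library.

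The ratio of Col4a1 to Col4a5 was 5.27, 4.70 and 4.99 in 263, 265 and 266, against 3.20, 2.97 and 2.54 in controls 261, 262 and 264. These ratios of FPKM within a library did not overlap between groups, and their difference was not tested. The separation follows from the values above and adds nothing to them. Col4a1 was higher, and Col4a5 lower, in every knockout-labelled library than in any control. Within each gene pair the ratio overlapped, at 1.94 to 2.03 in the knockout-labelled libraries and 1.72 to 2.05 in the controls for Col4a1 over Col4a2, and at 2.28 to 2.43 in the knockout-labelled libraries and 2.10 to 2.87 in the controls for Col4a5 over Col4a6. Col6a1 over Col6a2 was 1.84 to 2.59 in the knockout-labelled libraries and 1.54 to 1.69 in the controls, and Col1a1 over Col1a2 was 0.611 to 0.879 in the knockout-labelled libraries and 0.492 to 0.612 in the controls. Col5a1 over Col5a2 was 0.776 to 1.15 in the knockout-labelled libraries and 0.601 to 0.669 in the controls.

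**Figure D2:**
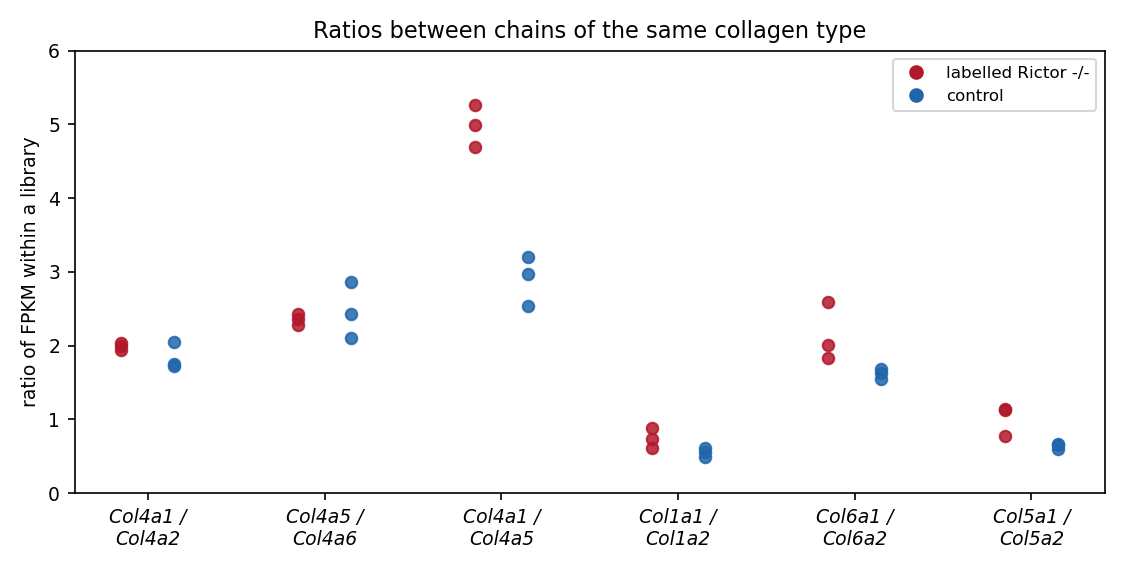
Ratio of FPKM between 2 chains within each library, for libraries labelled Rictor -/- (red, left) and control libraries (blue, right), 3 points per group. Col4a1 over Col4a5 lies between 4.70 and 5.27 in the knockout-labelled libraries and between 2.54 and 3.2 in the controls.

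Col18a1 had the smallest p among the collagens. It encodes collagen XVIII, a heparan sulfate proteoglycan of basement membranes whose C-terminal fragment is endostatin (ENSMUSG00000001435, chromosome 10, 77052178 to 77166548, GRCm38). Its levels were 88.0, 85.9 and 84.6 FPKM in libraries 263, 265 and 266, against 36.6, 39.4 and 37.1 FPKM in controls 261, 262 and 264. Each group was narrow and they lay far apart. Mean levels were 86.2 ± 1.72 FPKM in the knockout-labelled libraries and 37.7 ± 1.53 FPKM in the controls (SD, n = 3 per group), a 2.29-fold ratio of means. The log2(FPKM + 1) difference was 1.17 ± 0.06 (limma adjusted p = 0.000462), and it lay between 1.095 and 1.23 in all 19 alternatives, each of which kept the call. Col18a1 was thus the most abundant of the 42 members in the knockout-labelled libraries, above Col4a1, while Col4a1 was the most abundant in the controls. Its fellow multiplexin Col15a1 stood at 0.392 to 0.786 FPKM in the knockout-labelled libraries and at 0.590 to 0.915 FPKM in the controls and was not tested.

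Collagen VI, whose chains form beaded microfilaments between cells and fibrils, rose in 2 of its 3 tested chains. Col6a1 (ENSMUSG00000001119, chromosome 10, 76708792 to 76726168) was at 7.41, 10.4 and 9.94 FPKM in libraries 263, 265 and 266, against 2.74, 2.62 and 3.30 FPKM in controls 261, 262 and 264. Its groups were far apart, with a ratio of means of 3.21. The log2 difference of 1.39 ± 0.13 was the largest among the tested collagens (limma adjusted p = 0.0023), and the call held in all 19 alternatives. Col6a2 was at 2.86, 5.67 and 4.96 FPKM in libraries 263, 265 and 266, against 1.62, 1.70 and 2.03 FPKM in controls 261, 262 and 264. It rose by 0.95 ± 0.20 (limma adjusted p = 0.0197), with the call lost without control 261 or 262, without 265 or 266 and without the filter (adjusted p from 0.052 to 0.0681).

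Col6a3, the large chain that completes collagen VI, did not pass. It was at 0.473, 1.42 and 1.11 FPKM in libraries 263, 265 and 266, against 0.558, 1.005 and 0.571 FPKM in controls 261, 262 and 264, with overlapping groups (0.21 ± 0.22, limma adjusted p = 0.515). It was the only tested member that met the minimum through the knockout-labelled libraries alone. Its lowest value was in 263, which also had the lowest Col6a1 and Col6a2 of its group.

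**Figure D3:**
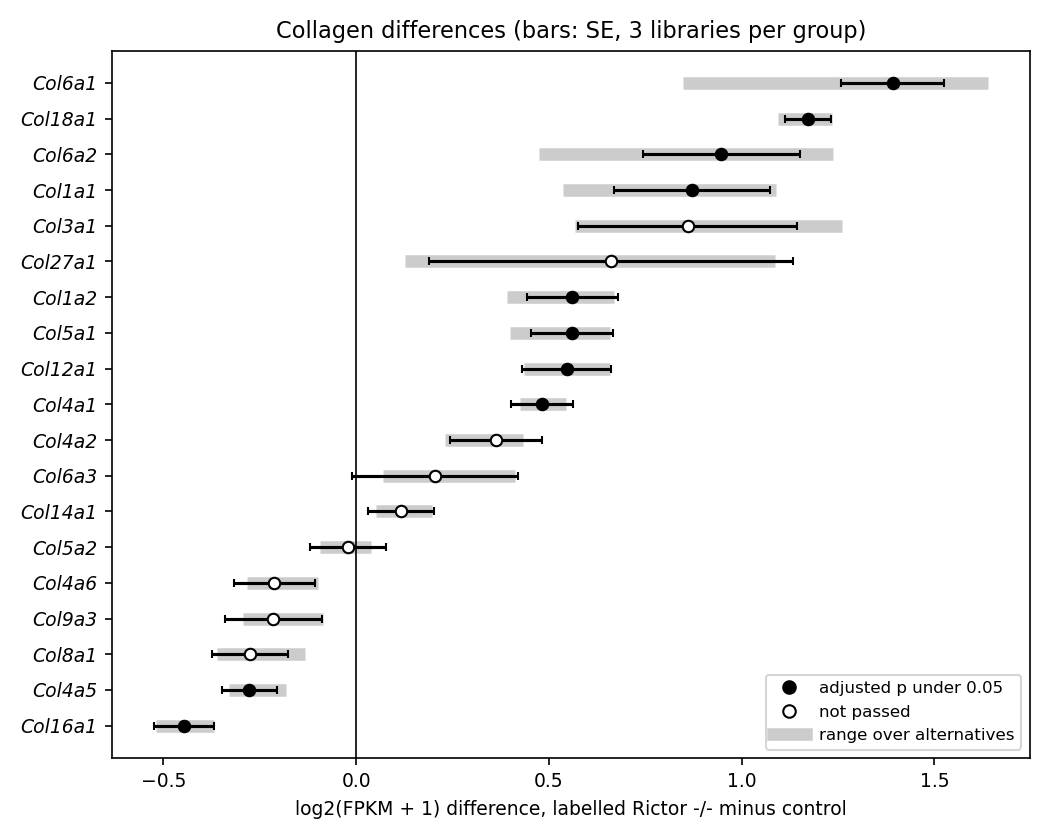
Difference in log2(FPKM + 1), labelled Rictor -/- minus control, for the 19 tested collagens with SE bars (3 libraries per group). Filled points passed limma's adjusted p threshold of 0.05, and grey bands span the values under the alternatives, which include other pseudocounts. The 8 members that rose include Col6a1 at 1.39 and Col18a1 at 1.17, and the 2 that fell are Col4a5 and Col16a1.

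The fibril-associated collagens, which bind to the surface of fibrils and do not form fibrils themselves, gave 1 rise and 1 fall among 4 tested. Col12a1 was at 16.7, 23.1 and 19.7 FPKM in libraries 263, 265 and 266, against 13.2, 12.5 and 13.9 FPKM in controls 261, 262 and 264. It rose by 0.55 ± 0.12 (limma adjusted p = 0.0189), with the call lost without control 261 or 262, without 266 and without the filter (adjusted p = 0.0564, 0.0533, 0.0625 and 0.0502). Its close relative Col14a1 was at 23.4, 20.5 and 25.2 FPKM in libraries 263, 265 and 266 and at 21.6, 20.3 and 21.4 FPKM in controls 261, 262 and 264, with overlapping groups (0.12 ± 0.09, limma adjusted p = 0.357). Col16a1, a minor collagen linked to both fibrils and microfibrils in skin, was at 14.4, 16.7 and 14.2 FPKM in libraries 263, 265 and 266, against 21.4, 20.2 and 21.1 FPKM in controls 261, 262 and 264. It fell by 0.45 on the log2 scale (SE 0.08, limma adjusted p = 0.0105), and all 19 alternatives kept the call.

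Col9a3 and Col8a1, low-level members of the other classes, had groups that did not overlap and did not pass. Col9a3, a chain of the cartilage collagen IX, was at 2.29, 2.37 and 2.19 FPKM in libraries 263, 265 and 266, against 2.42, 2.55 and 3.57 FPKM in controls 261, 262 and 264 (-0.22 ± 0.13, limma adjusted p = 0.254). Its exons share 234 bases with Tcfl5 on the other strand. Col8a1, a short-chain network collagen, was at 2.44, 2.42 and 2.35 FPKM in libraries 263, 265 and 266, against 2.98, 2.79 and 3.62 FPKM in controls 261, 262 and 264 (-0.27 ± 0.10, limma adjusted p = 0.0888). Groups that did not overlap occurred in 15 of the 19 tested members, 10 higher and 5 lower, and in 45.8% of all tested genes, 16.6% higher and 29.2% lower.

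The remaining 23 members stayed below the minimum in both groups. Of these, 15 had a mean of at least 0.1 FPKM in a group, namely Col2a1, Col5a3, Col11a2, Col24a1, Col4a3, Col4a4, Col26a1, Col28a1, Col19a1, Col20a1, Col9a2, Col15a1, Col8a2, Col23a1 and Col25a1, and the other 8 were lower. Without a filter, Col23a1, a transmembrane collagen, passed among 26987 genes, of which 2.68% were called higher and 5.58% lower, at 0.518, 0.391 and 0.455 FPKM in libraries 263, 265 and 266 against 0.186, 0.278 and 0.194 FPKM in controls 261, 262 and 264 (0.25 ± 0.05, limma adjusted p = 0.0375). No other of the 23 passed there. Col11a2, Col5a3 and Col19a1 also stood higher in every knockout-labelled library than in any control. With Col23a1 this made 4 of the 23 higher without overlap and 0 lower. No share over all genes below the minimum was derived, so this count has nothing to be read against. Col24a1, a fibrillar collagen, was at 0.479 FPKM in 265 and at most 0.0176 FPKM in the other 5 libraries. No member was at 0 in every library.

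The 3 largest rises among the collagens were those of genes near each other. Col6a2, Col6a1 and Col18a1 lie within 570.8 kb of chromosome 10 (76595762 to 77166548), a fact noticed after the values were seen. The interval holds 5 protein-coding genes of the table, and all 5 rose, where 7.91% of all tested genes rose. The other 2 are Pcbp3, which encodes an RNA-binding protein, and Slc19a1, the reduced folate carrier. Pcbp3 was at 5.31, 4.28 and 4.79 FPKM in libraries 263, 265 and 266, against 2.88, 2.46 and 2.45 FPKM in controls 261, 262 and 264 (0.69 ± 0.10, limma adjusted p = 0.00594). Slc19a1 was at 9.40, 8.31 and 9.14 FPKM in libraries 263, 265 and 266, against 5.21, 4.39 and 6.34 FPKM in controls 261, 262 and 264 (0.67 ± 0.12, limma adjusted p = 0.0112). Of the nearest tested protein-coding gene on either side, Lss did not pass (0.14 ± 0.08, adjusted p = 0.237) and Pofut2 rose by 0.35 ± 0.07 (adjusted p = 0.0138, limma), a call lost without 263 or 265 (adjusted p = 0.056 and 0.0527). Slc19a1 and Col18a1 overlap by position on opposite strands, with no exonic base in common in the annotation. The interval was chosen by its collagens, so the other genes give no test of the region.

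**Figure D4:**
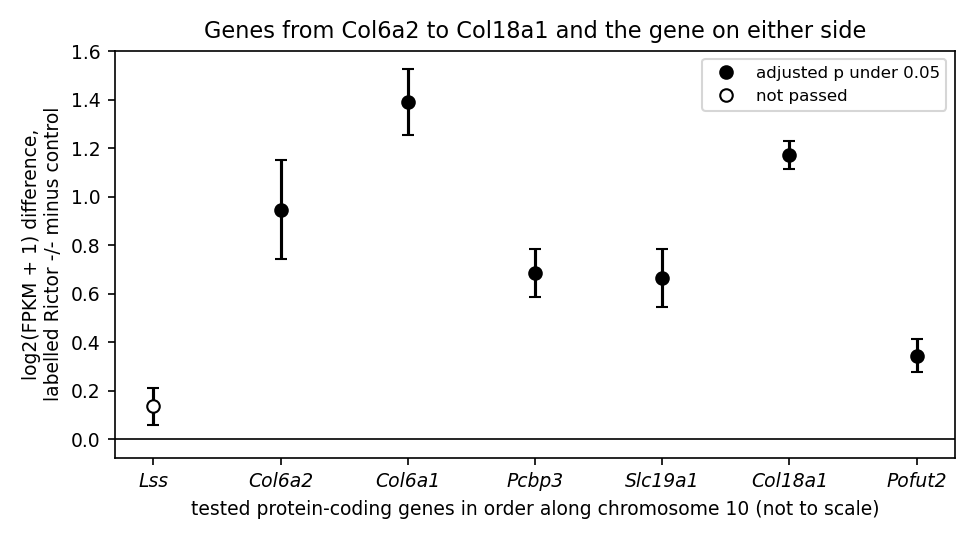
Difference in log2(FPKM + 1), labelled Rictor -/- minus control, with SE bars (3 libraries per group) for the tested protein-coding genes from Col6a2 to Col18a1 in chromosomal order, with the nearest tested gene on either side. Filled points passed limma's threshold. The 5 genes of the interval lie between 0.67 and 1.39, and Lss and Pofut2 at 0.14 and 0.35.

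Enzymes that modify and fold procollagen in the endoplasmic reticulum showed 4 of 17 tested genes higher (23.5%) and 0 lower, with a median log2 difference of 0.07. Of all tested genes 7.91% were higher and 15.6% lower, at a median of -0.06, and the counts of the lists that follow are to be read against these shares. Plod3, a lysyl hydroxylase and glycosyltransferase, was at 25.4, 22.7 and 23.4 FPKM in libraries 263, 265 and 266, against 14.1, 13.6 and 15.8 FPKM in controls 261, 262 and 264 (0.68 ± 0.08, limma adjusted p = 0.00342). The groups of Plod3 lay well apart. P4ha1, the catalytic subunit of a collagen prolyl hydroxylase, rose by 0.46 ± 0.06, and P3h2, a prolyl hydroxylase that acts on collagen IV, by 0.50 ± 0.08 (limma adjusted p = 0.0048 and 0.00972). P4ha1 ranged from 9.90 to 10.2 FPKM and P3h2 from 11.1 to 11.6 FPKM in the knockout-labelled libraries, against 6.81 to 7.39 FPKM and 6.81 to 8.47 FPKM in the controls. Fkbp10, a collagen chaperone, rose by 0.43 ± 0.11 (limma adjusted p = 0.0356), a call lost without any 1 library other than control 262 (adjusted p from 0.0603 to 0.119), without the filter (0.0912) and with a sex term (0.0848). Serpinh1, the collagen chaperone HSP47 and a gene named here after its values were seen, differed by 0.01 ± 0.10.

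Of the enzymes that trim propeptides, 4 were tested, 1 fell and 0 rose, a single gene against 15.6% lower over all tested genes. Adamts14, a procollagen N-proteinase, was at 5.26, 6.13 and 5.84 FPKM in libraries 263, 265 and 266, against 11.2, 10.7 and 10.004 FPKM in controls 261, 262 and 264 (-0.79 ± 0.08, limma adjusted p = 0.00238). Pcolce, which enhances C-propeptide removal, differed by 0.41 ± 0.19 (adjusted p = 0.158, limma). The 5 lysyl oxidases, which cross-link fibrils, all stayed below the minimum. Among fibril-binding matrix proteins 1 of 6 tested fell and 0 rose, and this share of 16.7% lower is close to the 15.6% of all tested genes. The gene that fell was Bgn, the proteoglycan biglycan, at 20.0, 20.2 and 23.0 FPKM in libraries 263, 265 and 266 against 27.7, 25.6 and 29.1 FPKM in controls 261, 262 and 264 (-0.37 ± 0.08, limma adjusted p = 0.0212), a call lost without 263, 265 or control 261 (adjusted p = 0.0813, 0.0736 and 0.0662). Sparc, a collagen-binding matricellular protein, differed by 0.39 ± 0.13 (limma adjusted p = 0.0711) and passed without control 264 (adjusted p = 0.00621) and under every scaling tried. Fn1, of the same list, was listed at 0 in 263 and at 41.9 to 64.4 FPKM elsewhere.

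Collagen-degrading enzymes and their inhibitors gave 2 higher and 1 lower of 8 tested. Mmp2, a gelatinase that cleaves denatured collagen and collagen IV, was at 7.14, 9.86 and 8.73 FPKM in libraries 263, 265 and 266, against 17.9, 14.2 and 17.7 FPKM in controls 261, 262 and 264 (-0.88 ± 0.13, limma adjusted p = 0.00672). Mmp3, the stromelysin of wounded skin, was at 4.67, 3.71 and 3.98 FPKM in libraries 263, 265 and 266, against 0.0723, 0.0359 and 0.329 FPKM in controls 261, 262 and 264 (2.16 ± 0.14, limma adjusted p = 0.000633). The metalloproteinase inhibitor Timp1 rose by 1.06 ± 0.17 (limma adjusted p = 0.00839). Timp1 was at 2.13, 1.08 and 1.76 FPKM in libraries 263, 265 and 266, against 0.242, 0.332 and 0.190 FPKM in controls 261, 262 and 264. Both Mmp3 and Timp1 entered the test only by their level in the knockout-labelled libraries and so could hardly have been called lower. Of 7 tested collagen receptors 1 rose and 0 fell. Itgb1, the shared subunit of the collagen-binding integrins, was at 84.0, 100.7 and 82.9 FPKM in libraries 263, 265 and 266, against 59.0, 54.9 and 61.7 FPKM in controls 261, 262 and 264 (0.60 ± 0.09, limma adjusted p = 0.00781). Lair1, an inhibitory collagen receptor of leukocytes, differed by -0.42 ± 0.13 (limma adjusted p = 0.0585).

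Markers of dermal cells were present at uneven levels. Among 12 dermal fibroblast markers 7 were tested, 2 rose and 0 fell, and the list summed to 429 to 462 FPKM in the knockout-labelled libraries and 334 to 368 FPKM in the controls. Vim made up most of that sum, and without it the list summed to 177, 208 and 184 FPKM in libraries 263, 265 and 266 and to 150.3, 145 and 179 FPKM in controls 261, 262 and 264, so that the groups overlapped. The fibroblast receptors Pdgfra and Pdgfrb reached at most 0.326 FPKM in any library, while Dcn, a fibroblast proteoglycan, stood at 97.3 to 132 FPKM in the knockout-labelled libraries and 96.4 to 121 FPKM in the controls, with overlapping groups. The members that rose were Thy1 (1.60 ± 0.18, limma adjusted p = 0.00335) and the intermediate filament gene Vim (0.44 ± 0.06, limma adjusted p = 0.00537). Thy1 was at 31.2, 29.3 and 27.2 FPKM in libraries 263, 265 and 266, against 9.32, 6.503 and 11.8 FPKM in controls 261, 262 and 264. Mouse T cells also express Thy1, and Vim is also expressed by melanocytes and epidermal immune cells. Mfap5 and Fbn1 stood higher in every knockout-labelled library than in any control but did not pass (limma adjusted p = 0.129 and 0.0815). Mfap5 was at 0.823 to 1.70 FPKM against 0.389 to 0.805 FPKM, and Fbn1 at 0.829 to 1.15 FPKM against 0.504 to 0.676 FPKM. Mfap5, Fbn1 and Dpt met the minimum only through the knockout-labelled libraries and so could hardly have been called lower. The 7 tested markers had a median log2 difference of 0.37, which is the value of Dpt itself, against -0.06 over all tested genes. Of these 7, 4 had groups that did not overlap, all higher, where 16.6% of all tested genes were higher without overlap. Mfap5 and Fbn1 are among these 4, with Thy1 and Vim. The minimum favoured higher values of Mfap5, Fbn1 and Dpt, so neither the median nor this count is a test of the list. The tested markers that met the minimum in both groups were Thy1, Vim, Fbln1 and Dcn, with differences of 1.60, 0.44, 0.12 and 0.07. No marker of the 12 was at 0 in every library. The part of dermal cells in the collagen differences was not tested.

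The summed levels of vessel, muscle and fat markers overlapped between the groups, although some single markers did not. Endothelial markers summed to 4.21 to 4.78 FPKM in the knockout-labelled libraries and 3.05 to 5.51 FPKM in the controls, and the 1 tested of 7, Egfl7, differed by 0.21 (limma adjusted p = 0.469). The endothelial adhesion gene Pecam1 was at most 0.399 FPKM in any library. The angiopoietin receptor Tek, below the minimum, stood at 0.227 to 0.303 FPKM in the knockout-labelled libraries and 0.132 to 0.193 FPKM in the controls. Mural and smooth muscle markers summed to 33.9 to 35.9 FPKM in the knockout-labelled libraries and 25.7 to 34.0 FPKM in the controls. Of their 3 tested members Acta2 rose (0.68 ± 0.16, limma adjusted p = 0.0245), a call lost without any 1 library other than control 264 (adjusted p from 0.0618 to 0.0816) and without the filter (0.055). Acta2 entered the test only by its level in the knockout-labelled libraries, at 1.73 to 1.96 FPKM against 0.582 to 1.22 FPKM in the controls, and so could hardly have been called lower. Skeletal muscle markers summed to 20.4 to 57.4 FPKM in the knockout-labelled libraries and 23.1 to 43.1 FPKM in the controls, and adipocyte markers to 7.84 to 13.3 FPKM in the knockout-labelled libraries and 9.63 to 21.1 FPKM in the controls. Nerve sheath markers summed to 17.5 to 19.3 FPKM in the knockout-labelled libraries and 20.1 to 20.8 FPKM in the controls, and dermal papilla markers to 28.4 to 34.0 FPKM in the knockout-labelled libraries and 31.9 to 36.4 FPKM in the controls. The nerve sheath sum was thus lower in every knockout-labelled library than in any control, and the dermal papilla sums overlapped. None of the 10 tested members of these 4 lists was called. The tested members with the smallest p were Tnnt3 and Ckm of muscle (limma adjusted p = 0.637 and 0.732), Lpl and Fabp4 of fat (0.301 and 0.455), Fabp7 and Sox10 of nerve sheath (0.304 and 0.44) and Lef1 of the dermal papilla (0.304). The proteoglycan gene Cspg4 of the mural list differed by 0.27 (limma adjusted p = 0.163). Its groups did not overlap, at 13.7 to 14.99 FPKM in the knockout-labelled libraries and 9.38 to 13.5 FPKM in the controls. Tagln of the same list, below the minimum, went the other way without overlap. It was at 0.684 to 0.822 FPKM in the knockout-labelled libraries and 0.837 to 1.12 FPKM in the controls. Cspg4 and Notch3 made up most of the mural sum, while Rgs5 and Myh11 were at most 0.136 and 0.0753 FPKM in any library. Lef1 made up most of the dermal papilla sum, while Corin and Rspo3 were at most 0.160 FPKM. These sums therefore follow a few genes and do not measure the amount of the named cells.

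Within each group, the library with the highest Col1a1 and Col3a1 also had the highest summed level of the muscle and of the fat list. This was 266 among the knockout-labelled libraries and 264 among the controls. The muscle creatine kinase Ckm was at 2.77, 4.06 and 11.3 FPKM in libraries 263, 265 and 266 and at 2.68, 4.995 and 5.62 FPKM in controls 261, 262 and 264. The fatty acid binding protein Fabp4 was at 5.11, 4.84 and 9.05 FPKM in libraries 263, 265 and 266 and at 5.82, 6.63 and 13.7 FPKM in controls 261, 262 and 264. Dpt, dermatopontin, was at 0.853, 0.892 and 2.20 FPKM in libraries 263, 265 and 266 and at 0.486, 0.754 and 0.996 FPKM in controls 261, 262 and 264. Single markers did not all share this order. Lpl was higher in 265 than in 266, Tnnt3 was marginally higher in control 262 than in control 264, Dcn was highest in 265, and the microfibril gene Mfap5 was lowest in control 264. Without 266 the difference of Col1a1 was 0.64 (limma adjusted p = 0.0278) and that of Col1a2 0.44 (limma adjusted p = 0.038), and both kept their call. Col6a2, Col12a1 and Col4a5 lost their call without 266 (limma adjusted p = 0.0681, 0.0625 and 0.0683). The part of muscle or fat tissue in the collagen differences was not tested.

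**Figure D5:**
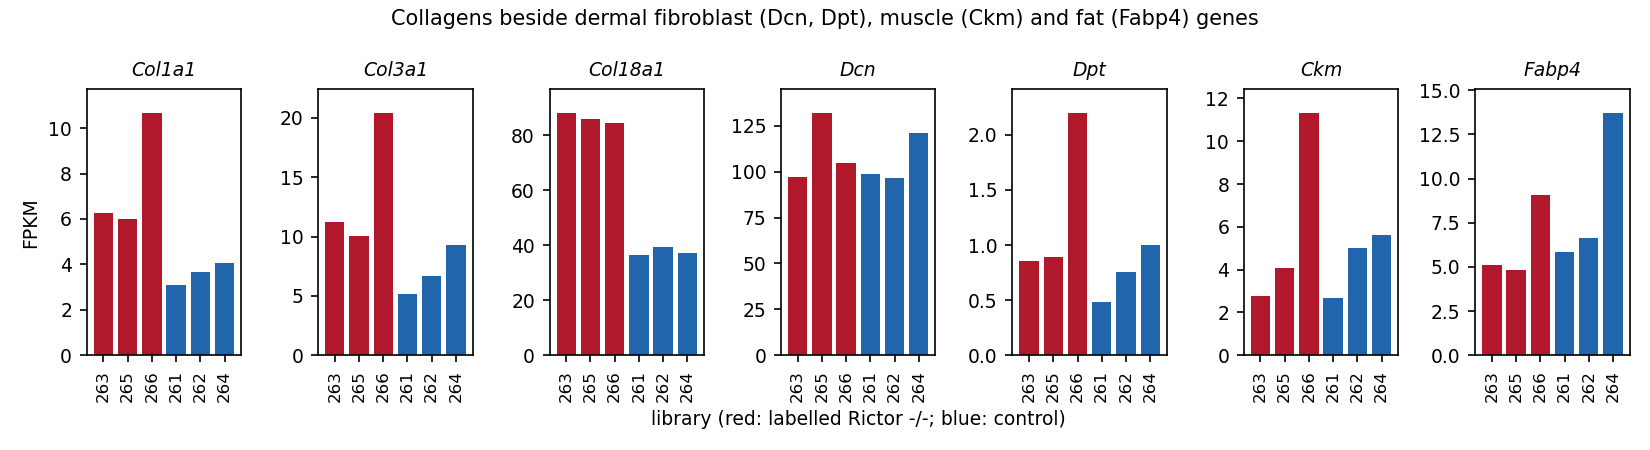
FPKM (bars from 0, each panel with its own scale) of Col1a1, Col3a1, Col18a1, the fibroblast genes Dcn and Dpt, the muscle gene Ckm and the fat cell gene Fabp4 in each library, labelled Rictor -/- in red on the left and control in blue on the right. Library 266 is highest for Col1a1, Col3a1, Dpt and Ckm, control 264 for Fabp4, and Col18a1 lies between 84.6 and 88.0 FPKM in all 3 knockout-labelled libraries.

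Keratinocyte markers were the most abundant of the marker lists, as the tissue label requires. The basal keratinocyte list summed to 11304 to 13245 FPKM in the knockout-labelled libraries and 7548 to 8127 FPKM in the controls, and 3 of its 4 members rose and 1 fell. Krt14, the basal keratin, rose by 1.20 ± 0.14, Itgb4, the hemidesmosome integrin subunit, by 0.85 ± 0.13 and Krt5, the partner of Krt14, by 0.57 ± 0.10 (limma adjusted p = 0.00373, 0.0064 and 0.00972). Krt15, a keratin of basal cells and the follicle bulge, fell by 0.72 on the log2 scale (SE 0.14, limma adjusted p = 0.0148). The calls of Krt5 and Krt15 were lost without 263 (adjusted p = 0.054 and 0.0567) and without the filter (0.208 and 0.0581). The suprabasal list summed to 24877 to 26228 FPKM in the knockout-labelled libraries and 26868 to 29658 FPKM in the controls, and 0 of its 4 members passed. Krt10 differed by -0.18 ± 0.10 and Lor by -0.34 ± 0.24 (limma adjusted p = 0.251 and 0.34). Krt14, Itgb4 and Krt5 thus moved with the label in the same direction as Col18a1, Col4a1 and Itgb1. Krt15 moved in the opposite direction, as did the basement membrane chains Col4a5, which fell, and Col4a6, which did not pass. The part of basal keratinocytes in those differences was not tested.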

How the data were processed

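Per the labels' protocols, epidermis was separated, its RNA purified on RNeasy columns and sequenced on Illumina libraries. CASAVA and Cufflinks were used with GRCm38, per the submitters' processing notes. The sources used here give no aligner, annotation or strandedness. FPKM, 1 column per library, are the values the authors deposited, per the file headers. GENCODE M21 (GRCm38) supplied symbols, positions and lengths and matched 49109 of 49452 identifiers. Of rows that shared a symbol, the one with the highest mean was kept. A gene of the skeletal muscle list was not analysed here.

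Because FPKM are not counts, log2(FPKM + 1) was tested with limma 3.58.1 (R 4.3.3) with an intensity trend, knockout-labelled minus control, for genes whose mean reached 1 FPKM in at least 1 group. Differences are on that scale, which understates changes of low genes. P-values are two-sided and Benjamini-Hochberg adjusted over all 13500 tested genes. The fit was tested on simulated data. No counting error per gene was derived, and a value of 0 can be a failed estimate.

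All tested members were named; of each list, up to 4 called genes with the smallest p, or the first 2 by p where fewer than 2 were called; other list genes given with values, and the chromosome 10 interval, were chosen after their values were seen. Members, classes and lists were chosen with earlier results of these data known. Alternatives were pseudocounts of 0.1 and 5, no filter, a minimum of 5 FPKM, scaling by median, trimmed mean or quantiles, a length and GC adjustment, no trend, robust variance, array weights, a threshold of 0.10, a sex term from Xist and Y-linked genes, and each library left out. Figures used Python 3.11.15, pandas 2.3.3 and matplotlib 3.10.9. Promoter sequences are from RefSeq.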

Additional observations from a re-analysis of the deposited data

How the results depend on the processing

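No called collagen changed sign in any alternative. Of the 10 called, Col18a1, Col6a1, Col4a1 and Col16a1 kept their call in every alternative, and the other 6 lost it in at least 1. Of the 9 that did not pass, Col4a2, Col3a1 and Col8a1 passed in some. The cause was not tested for any change named here. The count of collagens that rose was 8 as reported and 5 without a filter (fibrillar 3 against 1). These 5 include Col23a1, which was below the minimum and so not among the 8. The count that fell was 2 as reported, and 1 without a filter, under median or trimmed mean scaling, after length and GC adjustment and with a sex term, where the basement membrane count was 0 in place of 1. The basement membrane count that rose was 2 after length and GC adjustment, with array weights and at a threshold of 0.10, and the other classes had 2 that fell with array weights and at 0.10. With each library left out, 4 to 10 collagens rose (fibrillar 1 to 4, basement membrane 1 to 2, other 2 to 4) and 1 to 2 fell (basement membrane 0 to 1). Over all genes the counts higher and lower were 1068 and 2101 as reported, 1688 higher after length and GC adjustment, 2335 and 3937 with array weights, and 634 and 1218 with a sex term, and 477 to 1514 higher and 985 to 2270 lower with a library left out. Pathway genes that rose numbered 7 as reported, 4 at a minimum of 5 FPKM and 14 with array weights, where 7 fell in place of 3. With array weights 7 non-keratinocyte markers rose in place of 3 and 1 fell in place of 0. Rictor passed after length and GC adjustment (0.25, adjusted p = 0.0492), with array weights (0.25, adjusted p = 0.0107) and at a threshold of 0.10 (0.33, adjusted p = 0.0694). A minimum of 5 FPKM left out low members (Col6a2, Col6a3, Col9a3, Col8a1), which then gave no value. No paired analysis was possible because the labels used here give no link between a knockout-labelled library and a control. With 3 libraries per group, a member that missed the threshold is not shown to be equal between them.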
